A study of Mus musculus with 21 samples.

Results

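Epiblast stem cells kept in a medium labelled AFX were compared with epiblasts dissected from mouse embryos at embryonic day 6.0 (E6.0), gene by gene, from 6 of the 21 RNA-seq samples of the series. The members are the 3 AFX samples and the 3 E6.0 samples, chosen by their labels, and all 16614 of the 33861 genes in the count table that were expressed highly enough to be tested. Of the 21 samples, 12 are cultured cells and 9 are single epiblasts. The AFX cells carry the name E14, a mouse embryonic stem cell line of 129 background, and are labelled EpiSCs (epiblast stem cells). They were sampled at passages 14, 15 and 16, with 1000 cells in each sample. Each E6.0 sample was 1 whole epiblast, and the embryos are numbered 1, 2 and 3. The sample titles give the stage as embryonic day 6.0, whereas the cell type field gives 6.5. The labels name neither the strain of the embryos nor the contents of the AFX medium, and they do not say how the EpiSCs were derived. Passages of 1 line are not independent derivations, so the AFX samples vary only as passages do. The p-values rest on a spread estimated over all 21 samples of the series, which are passages of cell lines and epiblasts of 3 stages. Cell line, culture and collection differ together between the groups and cannot be told apart, and the labels do not say whether the genetic background differs too.

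The epiblast is the pluripotent tissue of the early embryo from which all tissues of the body arise. After implantation it forms a polarised epithelium, raises de novo DNA methylation, and becomes patterned by NODAL, WNT, FGF and BMP signals that set the primitive streak on one side. EpiSCs are pluripotent cells in culture that resemble this tissue, are usually maintained with activin (which signals through the NODAL receptors) and FGF2, and differ from naive embryonic stem cells in lacking most naive transcription factors.

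Library totals ran from 7703118 to 13965234 counts in AFX and from 7847469 to 13006656 in E6.0. At least 5 counts were found for 15666 to 17625 genes in the AFX samples and for 14903 to 15565 in the E6.0 samples. Ribosomal RNA-like loci took 22.2% to 27.2% of the counts in E6.0, and the AFX samples lay inside that range. No within-group pair of samples was a duplicate, as chi-square divided by its degrees of freedom was 6.67 to 18.5. Levels are given below as CPM (counts scaled by library size and not by gene length), and 3 values in a row are passages 14, 15 and 16 for AFX or embryos 1, 2 and 3 for E6.0. Log2 fold changes are AFX minus E6.0. Unless marked SD, the value after ± is an approximate standard error (SE). It is the size of the change divided by the square root of the test's F statistic. Adjusted p-values come from edgeR's quasi-likelihood test over all genes tested, with 0.05 as the threshold.

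Of the 16614 genes tested, 5724 passed the threshold (34.5%), with 2968 higher in AFX (17.9%) and 2756 lower (16.6%). A change of at least 2-fold was found for 3099 of them (18.7% of all genes tested), and 1233 rose and 482 fell by at least 4-fold. The median log2 fold change over all genes was 0.09. The 3 AFX values and the 3 E6.0 values did not overlap for 8825 genes (53.1%), of which 5588 were among the calls. These shares are the background against which every gene list below is read.

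The genes with the largest rises included developmental signals and receptors that were nearly silent in the epiblasts. Shh, the Sonic hedgehog ligand (chr5:28456815-28467256 in GRCm38, the build of all coordinates here), stood at 9.74, 14.8 and 8.24 CPM in AFX. No count of it was found in any of the 3 epiblasts, so that it was at least 33.6-fold higher in AFX (adjusted p 0.0219), the bound being set at 3 counts per library. The call on Shh was lost without any 1 of the 3 epiblasts (adjusted p 0.0505 to 0.0625). Six3, a homeobox factor of the anterior neural plate, stood at 7.46, 21.4 and 34.6 CPM in AFX and 0, 0.520 and 0.213 in E6.0, a log2 change of 6.22 ± 1.47 (adjusted p 0.00402), or 7.36 without embryo 2. Robo3, an axon guidance receptor, was at 4.50, 22.3 and 44.5 CPM against 0.526, 0.0866 and 0, a log2 change of 6.95 ± 1.37 (adjusted p 0.000948). Scube1, a secreted and membrane-bound EGF-repeat protein, was at 3.63, 16.1 and 44.5 CPM against 0.131, 0.347 and 0, a log2 change of 6.86 ± 1.12 (adjusted p 0.000135). For both Robo3 and Scube1 the highest AFX value was at passage 16, and without it their log2 fold changes were 6.10 and 5.74. Leaving out 1 epiblast gave 8.64 for Robo3 (embryo 1) and 8.23 for Scube1 (embryo 2). Another large rise was that of Mctp1, a calcium-binding membrane protein, at 18.5, 24.2 and 18.8 CPM in AFX. It held 2 counts over the 3 epiblasts together and was 284-fold higher in AFX over the pooled libraries (counting interval 78.3 to 2348, adjusted p 7.30e-08). Intervals of this kind are exact, at 95%, and cover counting error only. Slc15a2, a peptide transporter, was 161-fold higher in AFX over the pooled libraries (counting interval 44.2 to 1332, adjusted p 1.12e-06). Gpr37, an orphan receptor, was 102-fold higher in AFX over the pooled libraries (counting interval 34.7 to 498, adjusted p 1.34e-05), and Ptprv, a receptor-type tyrosine phosphatase, was 105-fold higher in AFX over the pooled libraries (counting interval 35.7 to 511, adjusted p 5.04e-07). With so few counts in the epiblasts, leaving out 1 embryo moved the fitted log2 fold changes of these 4 genes. Without embryo 2, which held all counts of Slc15a2, its value went from 7.08 to 9.79, and that of Mctp1 from 7.94 to 7.30. Gpr37 went from 6.43 to 7.42 without embryo 1, and Ptprv from 6.57 to 7.56 and 5.90 without embryo 1 or 2. Ahnak2, a large scaffold protein, was at 27.8, 25.9 and 16.6 CPM against 0.263, 0.433 and 0.213, a log2 change of 6.17 ± 1.01 (adjusted p 0.00024).

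The largest falls included genes that were absent or nearly so in the cultured cells. Pcnx2, a member of the pecanex family of membrane proteins, had no count in AFX and stood at 23.01, 15.8 and 17.1 CPM in the epiblasts, at least 67.5-fold lower in AFX (adjusted p 6.84e-08). Pmaip1, which encodes the p53-induced BH3-only death protein NOXA, was at 0.0672, 0.125 and 0.0833 CPM in AFX and 139, 157 and 147 in E6.0. Its AFX level rested on 3 counts in all, and it was 1732-fold lower in AFX over the pooled libraries (counting interval 592 to 8401, adjusted p 2.34e-12). Ap1m2, the subunit of the AP-1 clathrin adaptor that is particular to epithelial cells, was at 0, 0 and 0.167 CPM against 37.2, 33.9 and 36.2, 619.8-fold lower in AFX over the pooled libraries (counting interval 171 to 5125, adjusted p 6.07e-10). Passage 16 held all of its AFX counts, and the fitted log2 fold change was -11.49 without that passage and -8.32 without passage 14. Cdcp1, a transmembrane protein of epithelial cells, was at 0, 0.376 and 0.167 CPM against 18.1, 16.9 and 16.5, a log2 change of -6.74 ± 0.72 (adjusted p 3.42e-07), or -6.01 and -7.62 without passage 14 or 15. Dlg2, a synaptic scaffold protein, was at 0.0672, 0 and 0.250 CPM against 10.4, 18.02 and 8.42, a log2 change of -6.61 ± 1.14 (adjusted p 0.00014), or -7.80 without passage 16. In all of these falls every AFX sample lay below every epiblast, which the rule that chose these genes required. Rps4l, a ribosomal protein-like gene that GENCODE types as a transcribed processed pseudogene, and Zfp987, a KRAB zinc finger gene of a large family, also fell. Their log2 fold changes were -8.26 ± 0.32 (-9.21 without passage 14) and -6.98 ± 0.60, but reads shared with their copies make both values uncertain.

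Among abundant genes that changed at least 4-fold, the rises included lipid synthesis and cytoskeletal genes. Scd2, a fatty acid desaturase, rose from 249, 277 and 182 CPM in E6.0 to 884, 1000.4 and 1058 in AFX, a log2 change of 2.05 ± 0.17 (adjusted p 1.39e-08). Vim, the intermediate filament protein vimentin, rose from 20.2, 34.4 and 23.2 to 338, 470.0 and 445 CPM, a log2 change of 3.998 ± 0.27 (adjusted p 5.14e-09). Noct, a circadian NADPH phosphatase, rose from 126, 108 and 139 to 761, 806 and 644 CPM, a log2 change of 2.57 ± 0.15 (adjusted p 3.58e-11). Wdr31, a WD-repeat protein, rose from 22.7, 22.005 and 21.7 to 347, 343 and 318 CPM, a log2 change of 3.92 ± 0.16 (adjusted p 2.39e-14). Mid1, an X-linked microtubule-associated ubiquitin ligase, rose from 23.7, 11.7 and 9.49 to 425, 340.5 and 391 CPM, a log2 change of 4.71 ± 0.53 (adjusted p 9.09e-06). On the falling side Myh9, the heavy chain of non-muscle myosin IIA, went from 1468, 1566 and 1874 CPM in E6.0 to 218, 257 and 279.6 in AFX, a log2 change of -2.70 ± 0.20 (adjusted p 7.30e-09). Gas5, a noncoding host of small nucleolar RNAs, went from 216, 198 and 174 to 40.9, 36.7 and 53.1 CPM, a log2 change of -2.17 ± 0.15 (adjusted p 3.84e-10). Ftl1, the ferritin light chain, went from 327, 303 and 334 to 96.5, 68.7 and 60.8 CPM (-2.09 ± 0.17), and Hist1h2al, typed as a processed pseudogene of the histones, and the histone gene Hist2h2ac fell by 2.80 and 2.07 on the log2 scale, although ferritin pseudogenes and near-identical histone copies make these 3 values uncertain.

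**Figure D1:**
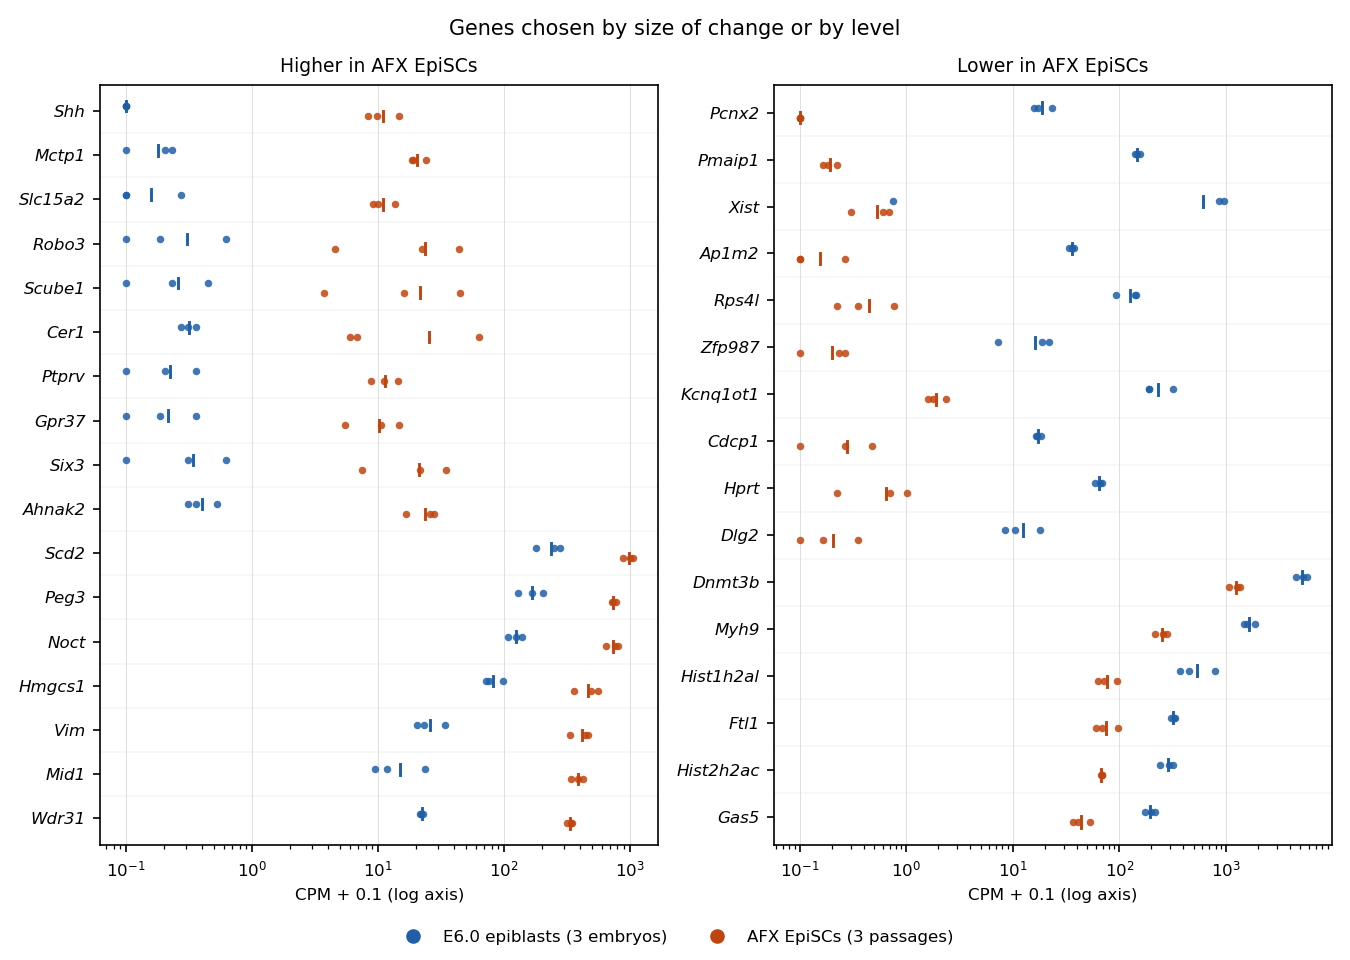
CPM in each sample, with 0.1 added, on a log axis for genes with the largest changes and for abundant genes changed at least 4-fold, in E6.0 epiblasts (blue, 3 embryos) and AFX EpiSCs (orange, 3 passages); short bars are group means. Shh lies at 0 in all 3 epiblasts and Pcnx2 at 0 in all 3 AFX samples, and Xist splits the epiblasts into 1 low and 2 high.

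The core pluripotency list (factors that hold cells pluripotent in every state) fell in part: of 9 genes tested, 6 were lower, 0 higher and 3 did not pass, with a median log2 fold change of -0.65. Pou5f1, the central POU factor OCT4, stood at 487, 358 and 420.3 CPM in AFX and 623, 644 and 719 in E6.0, a log2 change of -0.65 ± 0.14 (adjusted p 0.000924). Every AFX sample was below every epiblast, but the distance was less than 2-fold, and 53.1% of all genes had no overlap in either direction. Sall4, a zinc finger partner of OCT4, was at 262, 375 and 342 CPM against 598, 578 and 613, a log2 change of -0.87 ± 0.16 (adjusted p 0.000263). Lin28a, an RNA-binding protein that blocks let-7 maturation, changed by -0.62 ± 0.12. Utf1, a chromatin-associated factor of pluripotent cells, was at 26.9, 50.7 and 55.9 CPM against 155, 158 and 225, a log2 change of -2.02 ± 0.25 (adjusted p 5.70e-06). Sox2 and Nanog, the other central factors, did not pass, with log2 fold changes of 0.40 ± 0.25 (adjusted p 0.241) and -0.57 ± 0.51 (0.411). Nanog varied among AFX samples, at 32.3, 9.51 and 31.7 CPM, and overlapped the epiblasts at 36.9, 44.6 and 28.6.

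Naive pluripotency factors were low in both groups, as their summed level was 27.2 to 36.05 CPM over the list in AFX and 41.8 to 51.4 in E6.0. Of 10 tested, 3 fell and 0 rose (median -1.33). Zfp42, the naive marker REX1, was at 0.0672, 0 and 0.167 CPM against 1.58, 2.77 and 3.84. It was 32.6-fold lower in AFX over the pooled libraries (counting interval 10.8 to 161, fitted log2 fold change -4.82, or -5.64 without passage 16). Klf4, a Krüppel-like factor, was at 2.69, 1.25 and 1.91 CPM against 6.18, 5.11 and 5.44 (-1.48 ± 0.37, adjusted p 0.00397). Over its genes averaging at least 5 CPM in either group the median of the list was -0.15, and 1 of them passed, while 5 of the list passed with the 2 groups alone or without a filter.

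Formative and postimplantation epiblast factors mark the tissue that the epiblasts were taken from. Of 14 tested, 9 were lower and 0 higher in AFX, with a median of -0.71. Grhl2, a grainyhead factor that maintains epithelial genes, showed the largest fall in the list, from 70.2, 60.2 and 70.2 CPM in E6.0 to 12.8, 8.14 and 11.7 in AFX, a log2 change of -2.60 ± 0.18 (adjusted p 4.07e-10). Pou3f1, the POU factor OCT6, went from 111, 159 and 177 to 51.9, 74.9 and 65.9 CPM, a log2 change of -1.22 ± 0.18 (adjusted p 2.63e-05). Etv5, an ETS factor downstream of FGF, went from 278, 279.6 and 330.2 to 131, 143 and 158 CPM, a log2 change of -1.04 ± 0.18 (adjusted p 0.000133), and Sox3 changed by -1.11 ± 0.21 (adjusted p 0.000287). Otx2, a homeobox factor of the postimplantation epiblast, stood at 54.97, 87.2 and 88.5 CPM against 109, 133 and 137, a log2 change of -0.72 ± 0.24 (adjusted p 0.025), and this call was lost without AFX passage 14 and without embryo 2 or 3. Fgf5, the classical marker of this stage, overlapped at 88.4, 106 and 147 CPM against 94.1, 106 and 96.3 and did not pass (adjusted p 0.553).

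**Figure D2:**
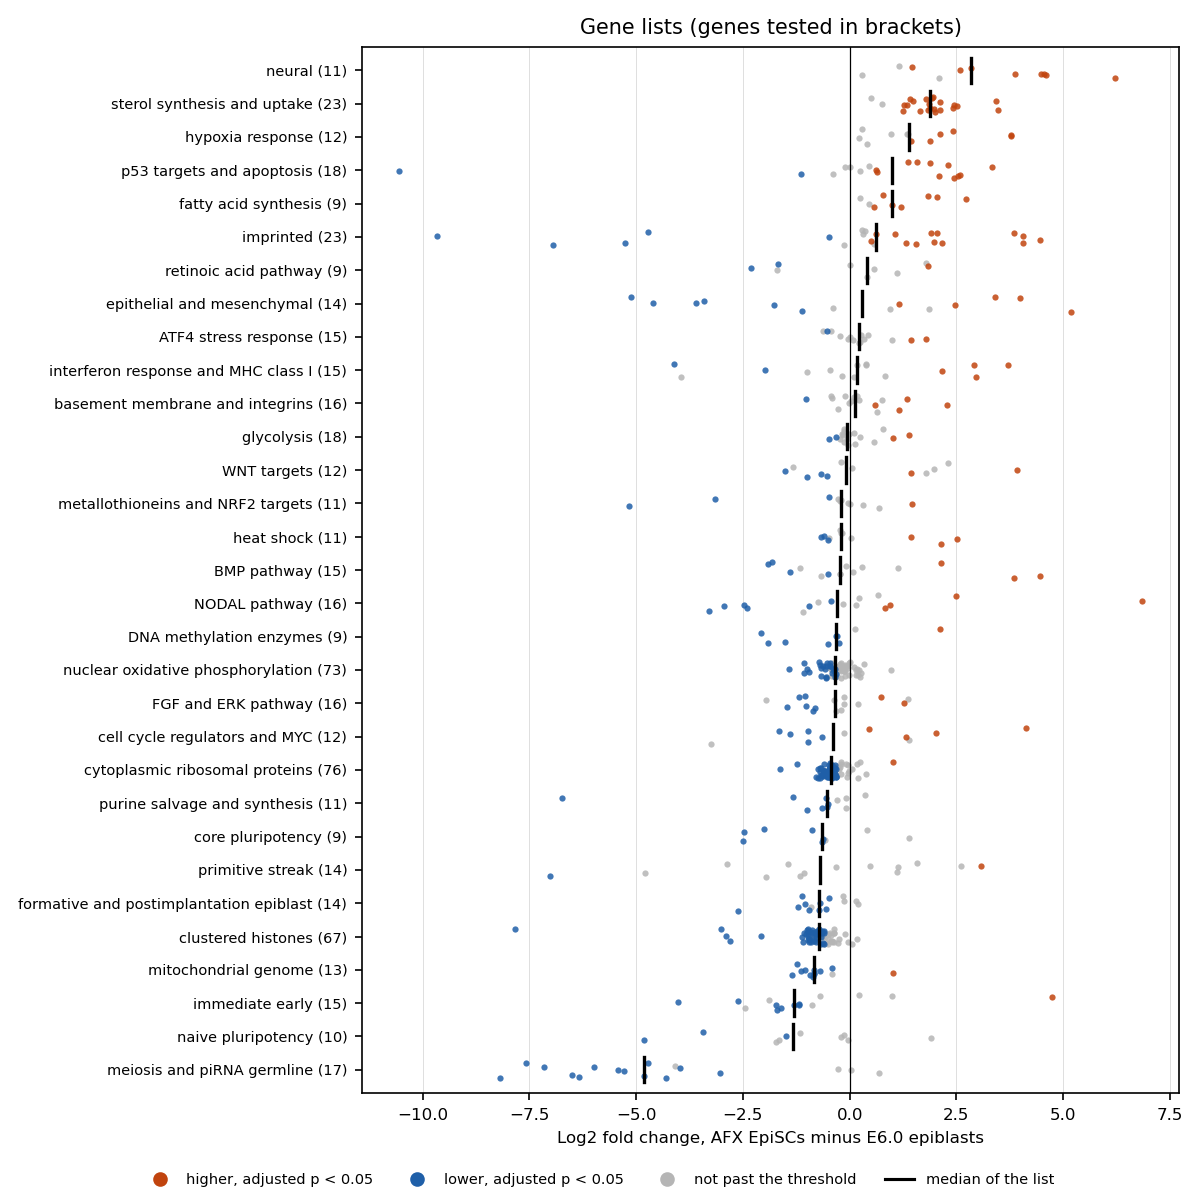
Log2 fold change (AFX minus E6.0) of each tested gene in 31 gene lists, ordered by the median of the list (black bar), with genes past the threshold in orange (higher) or blue (lower) and the others in grey. The germline list has the lowest median and the neural list the highest.

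NODAL signalling keeps the epiblast pluripotent and patterns it, and in AFX its ligand, coreceptor and convertases were lower while the antagonist Cer1, the ligand Gdf3 and the transducers Acvr1b and Smad3 were higher. Of 16 genes tested, 4 were higher and 6 lower. The ligand Nodal stood at 1.08, 0.751 and 9.41 CPM in AFX and 38.9, 43.1 and 31.5 in E6.0, a log2 change of -3.30 ± 0.61 (adjusted p 0.00052). The coreceptor Tdgf1 (CRIPTO) was at 5.78, 0.501 and 20.6 CPM against 35.5, 73.8 and 44.2, a log2 change of -2.47 ± 0.74 (adjusted p 0.0179), and this call was lost without AFX passage 14 or embryo 2 and with the 2 groups fitted alone (adjusted p 0.123). The convertases that cleave the NODAL precursor fell too, Pcsk6 from 13.9, 15.2 and 16.1 to 1.34, 1.25 and 3.16 CPM (-2.95 ± 0.56, adjusted p 0.00032) and Furin with a log2 fold change of -0.95 ± 0.21 (0.00119). The inhibitory SMAD gene Smad7 went from 90.1, 128 and 103 to 11.2, 8.76 and 39.8 CPM, a log2 change of -2.41 ± 0.58 (adjusted p 0.00484). On the higher side, the ligand gene Gdf3 was at 10.6, 14.4 and 11.3 CPM against 2.37, 1.56 and 2.56, a log2 change of 2.49 ± 0.32 (adjusted p 3.92e-06). The type I receptor gene Acvr1b rose by 0.82 ± 0.20 (adjusted p 0.00297) and the signal transducer Smad3 by 0.94 ± 0.19 (0.00069).

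The secreted antagonists separated the AFX passages from each other. Cer1, an antagonist of NODAL, BMP and WNT ligands, stood at 6.79, 5.88 and 63.9 CPM in AFX and 0.263, 0.173 and 0.213 in E6.0, a log2 change of 6.85 ± 1.75 (adjusted p 0.00762). Lefty1, a feedback inhibitor of NODAL, was at 0, 0.626 and 42.8 CPM in AFX and 10.6, 7.45 and 9.91 in E6.0. Its relative Lefty2 was at 0, 0.250 and 9.74 CPM in AFX and 4.47, 8.66 and 3.73 in E6.0. Passage 16 thus lay above all 3 epiblasts for both Lefty genes and passages 14 and 15 below all of them. Neither passed over the 3 passages (adjusted p 0.707 and 0.616), whereas without passage 16 their log2 fold changes were -5.27 (adjusted p 0.0075) and -5.77 (0.000548). Without passage 16 the value for Nodal was -5.30, for Tdgf1 -3.84, for Smad7 -3.40 and for Cer1 4.84. The summed level of the NODAL list was 316, 334 and 469 CPM at passages 14, 15 and 16, against 483 to 563 in the epiblasts.

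Primitive streak genes, which the posterior epiblast turns on at gastrulation, mostly did not pass. Of 14 tested, 1 rose and 1 fell, and the median was -0.69 (or -0.24 with the 1 gene without counts in AFX held at its bound), and it turned to 0.26 without embryo 2. The epiblasts differed among themselves. T (brachyury) was at 3.29, 14.1 and 0.320 CPM in the 3 embryos and 15.99, 14.9 and 8.66 in AFX, and Foxa2, a forkhead factor of the anterior streak, at 5.52, 17.3 and 2.45 and 10.6, 15.1 and 30.4. Embryo 2 held the highest level of both genes among the epiblasts. Eomes, a T-box factor of streak and endoderm, was at 98.3, 187 and 69.7 CPM in E6.0 and 35.4, 51.1 and 72.1 in AFX (adjusted p 0.057). Eomes passed as lower under 5 of 13 alternatives, among them the DESeq2 Wald test (adjusted p 0.0448) and the fit without embryo 3 (0.036). Evx1, a posterior homeobox gene, was at 3.68, 11.8 and 0.320 CPM in E6.0 with 1 count in all of AFX, 204-fold lower in AFX over the pooled libraries (counting interval 36.1 to 8112, adjusted p 0.0142). Its fitted log2 fold change of -7.02 was -8.74 without passage 16 and -5.59 without embryo 2, and it lost its call without AFX passage 14, AFX passage 15 or embryo 2. Lhx1, an anterior streak LIM factor, stood at 3.16, 2.50 and 21.7 CPM against 0.263, 1.82 and 0.959, a log2 change of 3.07 ± 1.02 (adjusted p 0.0299), and lost its call without passage 16 (1.396) or any 1 epiblast. The Lhx1 call was also lost with the 2 groups fitted alone (adjusted p 0.0559) and with both FS lines in 1 group (0.0574). The number of calls in the list ran from 0 to 12 over the alternatives. Fgf8 was at 10.8, 2.25 and 25.6 CPM against 39.96, 78.8 and 32.8 (adjusted p 0.0652), and passed at -2.89 (0.0266) without passage 16.

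**Figure D3:**
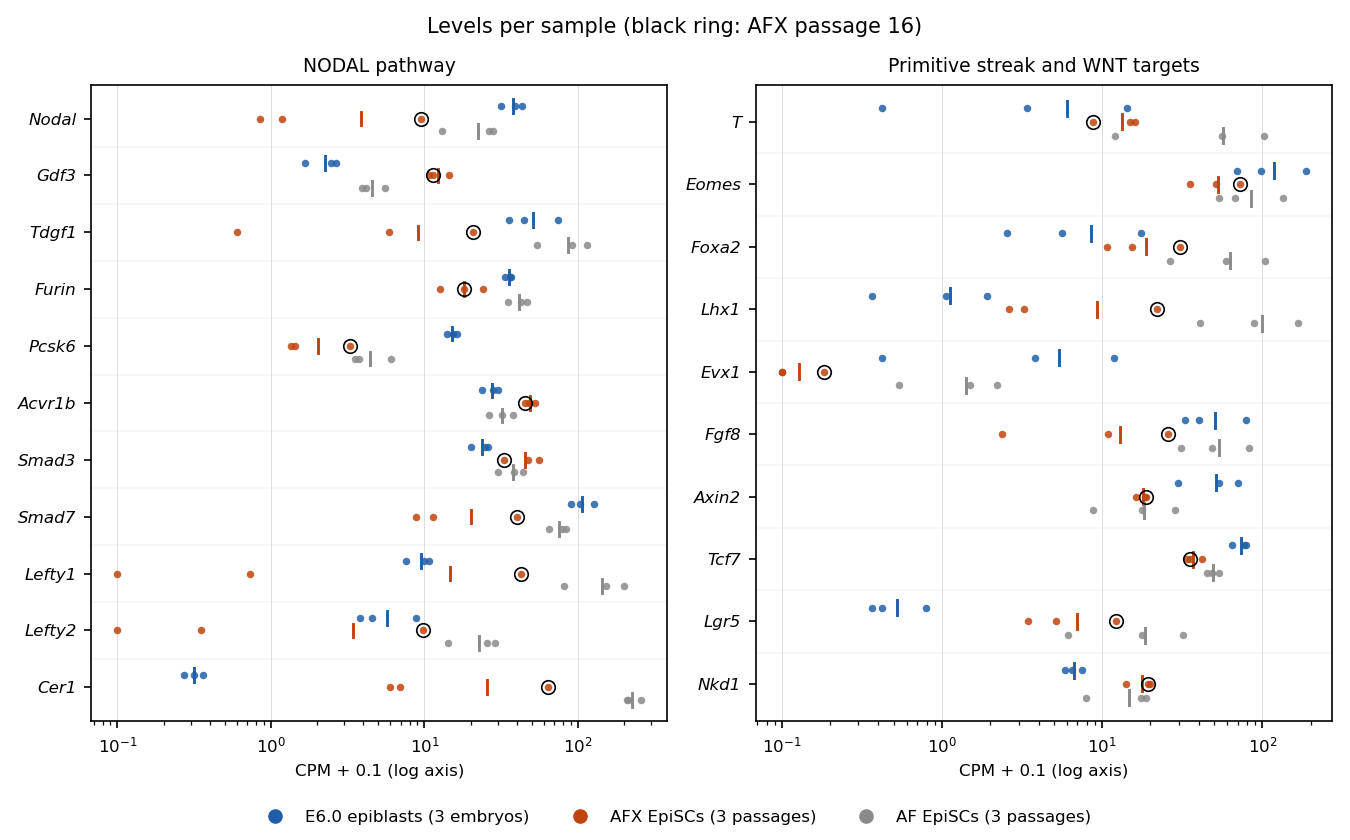
CPM in each sample, with 0.1 added, on a log axis for NODAL pathway genes and for primitive streak and WNT target genes in E6.0 epiblasts (blue), AFX EpiSCs (orange) and, for reference, E14 EpiSCs in the medium labelled AF (grey), 3 samples each; short bars are means and black rings mark AFX passage 16. Passage 16 lies apart from passages 14 and 15 for Nodal, Lefty1, Lefty2, Smad7 and Cer1.

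WNT target genes moved in both directions. Of 12 tested, 4 fell and 2 rose (median -0.08). Axin2, the general feedback target of beta-catenin, was at 18.4, 16.1 and 18.7 CPM against 53.8, 70.1 and 29.7, a log2 change of -1.53 ± 0.42 (adjusted p 0.0105), a call lost without embryo 2. Tcf7, a transcription factor and target of the pathway, was at 41.6, 33.8 and 35.1 CPM against 64.7, 79.4 and 76.6, a log2 change of -0.996 ± 0.16 (adjusted p 4.19e-05). Lgr5, the R-spondin receptor, was at 3.36, 5.01 and 12.2 CPM against 0.263, 0.693 and 0.320, a log2 change of 3.91 ± 0.86 (adjusted p 0.00151), or 3.20 without passage 16. Nkd1, an inhibitor of Dishevelled, rose by 1.44 ± 0.32 (adjusted p 0.00144).

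In the FGF and ERK list, 6 of 16 genes fell and 2 rose (median -0.34). The receptor Fgfr1 was higher in AFX, at 187, 249 and 192 CPM against 129, 124 and 125, a log2 change of 0.73 ± 0.12 (adjusted p 8.71e-05). Spred1, an inhibitor of RAS activation, was also higher, at 103, 129.9 and 130.0 CPM against 53.9, 55.2 and 40.5, a log2 change of 1.28 ± 0.23 (adjusted p 0.000269). The ligand Fgf15 was lower, at 6.79, 15.02 and 24.2 CPM against 42.2, 42.9 and 41.99, a log2 change of -1.47 ± 0.40 (adjusted p 0.00809). The falls otherwise held ERK feedback genes, namely Dusp4, Spry1, Spry2 and Spred2, with log2 fold changes from -1.18 to -0.81, beside Etv5.

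In the BMP list the ligands Bmp2 and Bmp7 and the pseudoreceptor gene Bambi rose, and the target genes Id1 and Id3 were among those that fell. In all 3 rose and 4 fell of 15 genes tested, and 4 passed without AFX passage 15 or without embryo 2. The ligand Bmp7 stood at 17.7, 18.02 and 14.6 CPM in AFX and 0.657, 1.30 and 0.213 in E6.0, a log2 change of 4.46 ± 0.95 (adjusted p 0.00178), or 5.29 without embryo 2. Bmp2 was at 6.05, 7.01 and 19.6 CPM against 0.526, 1.30 and 0.320, a log2 change of 3.84 ± 0.68 (adjusted p 0.00022), with its highest value at passage 16 (3.11 without it, 4.68 without embryo 2). Bambi, which blocks TGF-beta family signals, was at 54.97, 53.4 and 48.9 CPM against 9.99, 13.1 and 12.3, a log2 change of 2.15 ± 0.27 (adjusted p 2.53e-06). Id3, a direct BMP target, was at 7.26, 9.76 and 18.9 CPM against 44.04, 52.9 and 39.2, a log2 change of -1.92 ± 0.43 (adjusted p 0.00196). Id1 also fell (-1.404 ± 0.41), but its groups overlapped and the call was lost without embryo 2 (-0.81) or AFX passage 15. Of the retinoic acid pathway genes 33.3% passed, near the 34.5% of all genes, with 1 of 9 higher (Stra6, the retinol transporter, 1.82 ± 0.39) and 2 lower (the receptor Rara, -1.69 ± 0.16, and the reductase Dhrs3, -2.32 ± 0.46), or 5 passing without a filter.

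Genes of the neural plate were higher. Of 11 tested, 8 were higher and 0 lower, against 17.9% higher among all genes, and the median was 2.85. Genes near 0 in the epiblasts, such as Sox1 and Hesx1, passed the filter through other groups and could hardly fall. Sox1, the earliest neural SOX factor, stood at 9.27, 11.01 and 20.4 CPM in AFX and 0.920, 0.693 and 0.107 in E6.0, a log2 change of 4.56 ± 0.83 (adjusted p 0.000399). Hesx1, an anterior homeobox factor, was at 3.76, 17.8 and 13.4 CPM against 0.263, 1.04 and 0, a log2 change of 4.60 ± 1.09 (adjusted p 0.0038), or 6.46 without embryo 2. Ncam1, a neural adhesion molecule, was at 66.7, 56.6 and 42.5 CPM against 4.21, 3.47 and 3.73, a log2 change of 3.87 ± 0.27 (adjusted p 5.17e-10). Nes (nestin), an intermediate filament of progenitors, was at 369, 418 and 379 CPM against 159, 139 and 124, a log2 change of 1.46 ± 0.15 (adjusted p 2.05e-07). No AFX value of these 4 genes overlapped an epiblast value, as was so for 53.1% of all genes. The other calls were Six3, Rax, Pax3 and Hes5, with log2 fold changes from 2.59 to 6.22. Zfp521, an early neural zinc finger gene, was at 35.01, 36.4 and 32.6 CPM in AFX and 30.2, 31.8 and 23.2 in E6.0 and did not pass (adjusted p 0.323). The number of neural calls fell to 5 when AFX passage 16, embryo 1 or embryo 2 was left out.

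Of 14 epithelial and mesenchymal genes tested, 6 were lower, 5 were higher and 3 (Krt18, Snai2 and Twist1) did not pass. The lower ones were epithelial genes. The higher ones were Vim, Zeb1, Zeb2, Cdh2 and the keratin gene Krt8. Cdh1 (E-cadherin), the adhesion molecule of epithelia, stood at 232, 185 and 187 CPM in AFX and 688, 634 and 744 in E6.0, a log2 change of -1.78 ± 0.18 (adjusted p 2.43e-07). Epcam changed by -1.12 ± 0.16 (adjusted p 1.26e-05). Tight junction genes fell as well. Cldn7 was at 1.81, 0.250 and 0.749 CPM against 34.7, 35.8 and 37.8, a log2 change of -5.11 ± 0.51 (adjusted p 3.42e-07), or -6.03 without passage 14. Ocln (occludin) was at 0.941, 1.0014 and 0.583 CPM against 20.1, 18.02 and 23.1, a log2 change of -4.59 ± 0.48 (adjusted p 2.06e-07), and Cldn6 at 6.38, 4.88 and 12.4 CPM against 86.2, 99.3 and 104, a log2 change of -3.59 ± 0.31 (adjusted p 6.84e-08). Esrp1, the splicing regulator of epithelial isoforms, was at 13.8, 6.51 and 14.1 CPM against 139.6, 107 and 124, a log2 change of -3.40 ± 0.27 (adjusted p 1.46e-08). Among the risers, Zeb1, a repressor of epithelial genes, stood at 44.5, 53.8 and 51.7 CPM in AFX and 1.45, 1.39 and 1.28 in E6.0, a log2 change of 5.18 ± 0.37 (adjusted p 1.11e-09). Its relative Zeb2 was at 51.5, 74.7 and 57.2 CPM against 7.36, 6.06 and 4.05, a log2 change of 3.39 ± 0.29 (adjusted p 1.11e-08), and Cdh2 (N-cadherin) at 59.9, 89.1 and 126 CPM against 13.9, 24.3 and 10.7, a log2 change of 2.47 ± 0.34 (adjusted p 2.71e-05). The groups were apart for each of these genes, as they were for 53.1% of all genes. Krt8, a keratin of simple epithelia, rose with the mesenchymal genes (1.15 ± 0.35, adjusted p 0.0189), a call lost without AFX passage 16 or embryo 3 and with both FS lines in 1 group (adjusted p 0.0831). Feeder fibroblast markers summed to 47.8 to 76.8 CPM in AFX and 14.3 to 22.2 in E6.0, with 5 of 10 higher and 1 lower, and none of the 10 was at 0 in all AFX samples. Of these markers 3 passed without AFX passage 14, and 3 over genes averaging at least 5 CPM in either group. Col1a1, the fibrillar collagen, was at 18.7, 11.1 and 6.49 CPM against 0.920, 4.68 and 1.49, a log2 change of 2.29 ± 0.58 (adjusted p 0.00627), or 3.30 without embryo 2. The part of such markers in the rise of Vim, Zeb1, Zeb2 and Cdh2 was not tested. In bulk samples fewer cells of a type and less RNA per cell cannot be told apart.

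Basement membrane and integrin genes mostly did not pass, with 4 higher and 1 lower of 16, or 8 passing with the 2 groups fitted alone and 9 without a filter. The nidogen gene Nid1 rose by 2.27 ± 0.38, Sparc by 1.35 ± 0.27, and the laminin chain gene Lama5 went from 444, 365 and 387 to 221, 147 and 217 CPM (-1.03 ± 0.16).

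De novo DNA methylation enzymes were several times lower in AFX. Of 9 methylation and demethylation genes tested, 7 fell and 1 rose. Dnmt3b, the main de novo methyltransferase of the epiblast, stood at 1272, 1069.6 and 1363 CPM in AFX and 4533, 5324 and 5727 in E6.0, a log2 change of -2.07 ± 0.19 (adjusted p 1.77e-07). Dnmt3a was at 196, 175 and 219 CPM against 504, 528 and 653, a log2 change of -1.51 ± 0.14 (adjusted p 4.18e-08). Dnmt3l, their catalytically inactive cofactor, was at 4.30, 8.14 and 2.33 CPM against 9.86, 16.03 and 26.96, a log2 change of -1.91 ± 0.53 (adjusted p 0.0111), a call lost without AFX passage 16 or embryo 3. Uhrf1, which guides maintenance methylation, changed by -0.50 ± 0.13 (adjusted p 0.00412). Tet2, a dioxygenase that removes methylation, was at 28.6, 13.5 and 24.2 CPM against 5.92, 3.73 and 5.86, a log2 change of 2.12 ± 0.60 (adjusted p 0.0125), a call lost without embryo 2. The count of 7 falls included Tdg, Tet1 and Dnmt1, each under 0.32 on the log2 scale, and 4 or 5 genes of the list passed when AFX passage 14, AFX passage 16, embryo 2 or embryo 3 was left out.

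Germline genes that act in meiosis and in the piRNA pathway are held silent by promoter methylation in somatic cells, and several carry an E-box (CACGTG), the site of MYC and MAX family factors that recruit repressors there. The 250 bases before the annotated start, from the RefSeq promoter table for GRCm38.p6, are shown for 5 genes of the list that differ in how they moved, with each E-box in capitals.
Ddx4 (chr13:112652311-112652560, minus strand): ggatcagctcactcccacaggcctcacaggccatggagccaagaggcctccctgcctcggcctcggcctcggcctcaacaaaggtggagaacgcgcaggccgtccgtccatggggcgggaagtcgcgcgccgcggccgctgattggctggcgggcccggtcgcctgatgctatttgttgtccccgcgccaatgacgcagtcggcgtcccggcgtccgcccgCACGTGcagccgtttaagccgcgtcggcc
Mael (chr1:166238745-166238994, minus strand): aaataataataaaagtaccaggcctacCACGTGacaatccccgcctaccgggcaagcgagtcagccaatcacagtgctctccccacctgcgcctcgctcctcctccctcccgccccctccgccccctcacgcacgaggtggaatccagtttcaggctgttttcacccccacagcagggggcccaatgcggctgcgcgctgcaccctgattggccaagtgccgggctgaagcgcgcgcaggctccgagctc
Sycp1 (chr3:102936101-102936350, minus strand): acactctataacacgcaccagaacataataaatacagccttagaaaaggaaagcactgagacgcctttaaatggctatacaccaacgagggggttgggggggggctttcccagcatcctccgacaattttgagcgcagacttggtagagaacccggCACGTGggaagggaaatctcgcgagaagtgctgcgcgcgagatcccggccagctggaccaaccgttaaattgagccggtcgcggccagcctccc
Hormad1 (chr3:95559427-95559676, plus strand): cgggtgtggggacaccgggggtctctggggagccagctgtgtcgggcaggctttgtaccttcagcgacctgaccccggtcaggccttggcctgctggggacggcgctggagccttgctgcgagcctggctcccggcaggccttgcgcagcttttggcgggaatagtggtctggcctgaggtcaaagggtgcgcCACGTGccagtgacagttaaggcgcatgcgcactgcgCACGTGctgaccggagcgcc
Sycp3 (chr10:88459337-88459586, plus strand): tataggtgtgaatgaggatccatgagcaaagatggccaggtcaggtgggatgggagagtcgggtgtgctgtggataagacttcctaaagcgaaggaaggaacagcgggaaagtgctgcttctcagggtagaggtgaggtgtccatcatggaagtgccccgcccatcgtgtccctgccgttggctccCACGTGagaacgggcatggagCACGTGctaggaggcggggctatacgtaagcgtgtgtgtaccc
Hormad1 and Sycp3 hold 2 copies each and the other 3 genes hold 1. A promoter was found for 15 of the 18 listed genes and 10 of them hold CACGTG on either strand (66.7%), against 6.86% of 27025 genes in the table. CACGTG reads the same on both strands and contains the ACGTG core searched below.

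Most of the germline genes tested were low in the epiblasts and lower still in AFX. Of 17 tested, 13 fell and 0 rose, where 16.6% of all genes were lower. The genes at or near 0 in AFX passed the expression filter only through other groups of the fit. A fall was nearly the only outcome open to them, so the 16.6% is no yardstick for this count. The median was -4.80, or -3.68 with the 5 genes without counts in AFX held at their bound. Ddx4 (VASA), an RNA helicase of germ cells, stood at 0.134, 0 and 0.167 CPM in AFX and 11.2, 9.27 and 13.3 in E6.0, a log2 change of -6.49 ± 0.60 (adjusted p 3.66e-08). Tex11, an X-linked meiotic gene, was at 0 in AFX and at 2.76, 1.91 and 2.34 CPM in E6.0, at least 8.48-fold lower (adjusted p 8.40e-06). Syce1, a synaptonemal complex gene, was at 0 in AFX and 4.34, 4.16 and 2.13 CPM in E6.0, at least 12.9-fold lower (0.000217). Hormad1, a meiotic chromosome axis gene, was at 0 in AFX and 0.657, 1.30 and 3.20 CPM in E6.0, at least 6.23-fold lower (0.000227). Sycp1, of the synaptonemal complex, was at 0, 0.125 and 0.333 CPM against 1.18, 8.84 and 10.1, a log2 change of -5.41 ± 1.13 (adjusted p 0.00206). Mael, of the piRNA pathway, was 92.9-fold lower in AFX over the pooled libraries (counting interval 16.2 to 3717, adjusted p 0.00032), and passage 14 held its 1 AFX count (fitted log2 fold change -5.98, or -7.66 without it). Tdrd1, a Tudor protein of the same pathway, was at 0, 0.125 and 0.250 CPM against 5.78, 5.02 and 4.48, a log2 change of -5.29 ± 1.04 (adjusted p 0.000488). Without passage 14 or 16 the values were -4.72 and -6.87 for Sycp1 and -4.61 and -6.44 for Tdrd1. The list held 4 calls over genes averaging at least 5 CPM in either group and 8 when the 2 groups were fitted alone. Primordial germ cell markers summed to 4.38 to 16.3 CPM in AFX and 28.5 to 39.4 in E6.0, with 3 of 4 lower, or 1 over genes averaging at least 5 CPM. Among these Kit, a receptor tyrosine kinase, was at 3.70, 3.38 and 7.74 CPM against 32.2, 21.7 and 20.5, a log2 change of -2.31 ± 0.39 (adjusted p 0.000123), and Dppa3 (STELLA) at 0, 0 and 0.0833 CPM against 3.55, 1.04 and 3.94 (fitted log2 fold change -6.11, or -5.52 and -7.83 without passage 14 or 16). The part of these cells in the germline values was not tested.

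Among the 4 genes of the list that did not pass were Sycp3 and Rnf17. Sycp3, whose promoter holds 2 E-boxes, was at 38.8, 12.6 and 10.7 CPM in AFX and 12.8, 14.3 and 11.5 in E6.0 (adjusted p 0.317). Rnf17, a Tudor protein of the germline, was at 21.97, 20.9 and 11.4 CPM against 21.6, 22.4 and 21.8 (adjusted p 0.553). Both overlapped the epiblasts, and passage 14 held the highest AFX value of each. Tests of whether they differed from the rest of the list were not made.

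**Figure D4:**
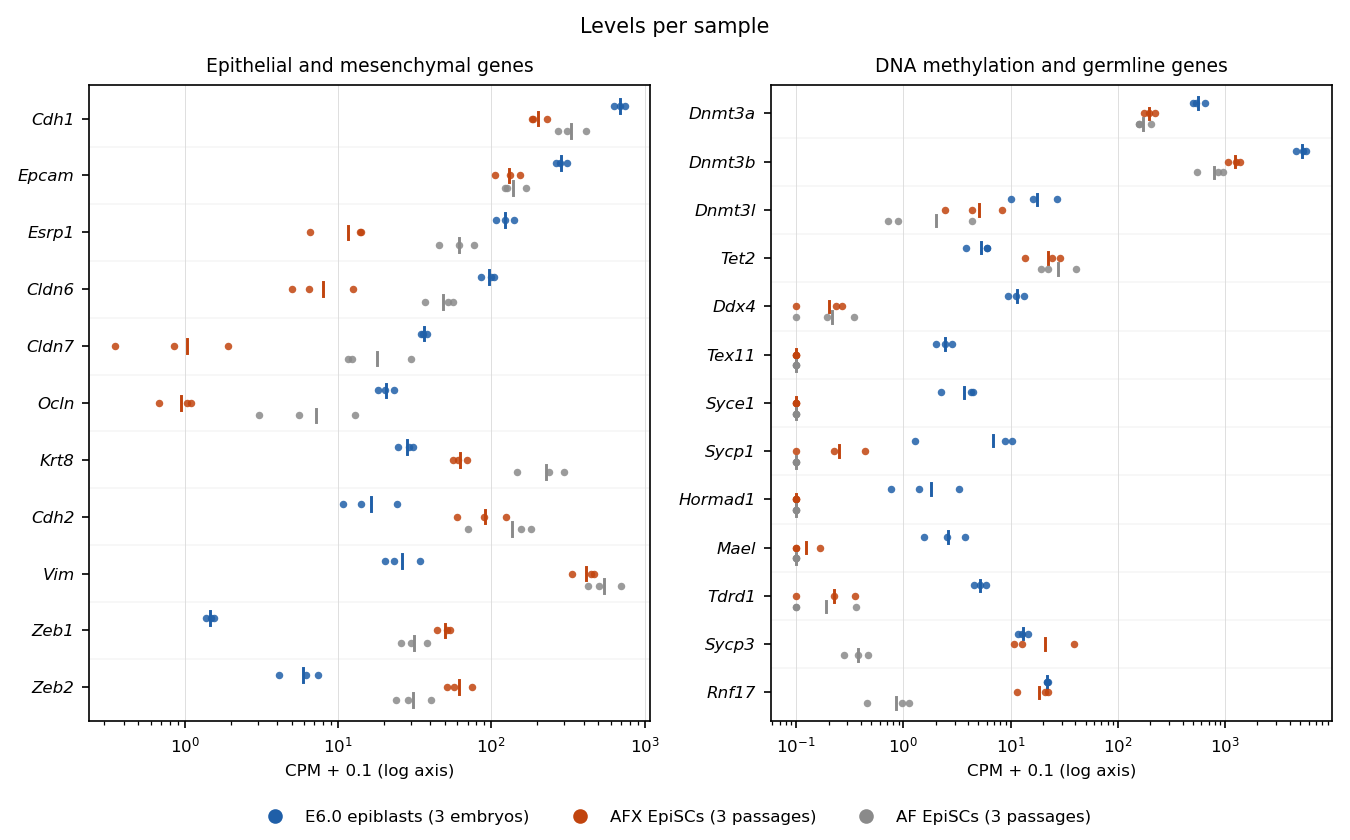
CPM in each sample, with 0.1 added, on a log axis for epithelial and mesenchymal genes and for DNA methylation and germline genes in E6.0 epiblasts (blue), AFX EpiSCs (orange) and AF EpiSCs (grey), 3 samples each; short bars are means. Zeb1 and Vim lie to the right in AFX and Cldn7 and Ocln to the left, and Sycp3 and Rnf17 overlap between AFX and E6.0 while the other germline genes do not.

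Imprinted genes, expressed from 1 parental copy, were higher in 13 of 23 cases and lower in 5, beside 34.5% of all genes that changed in either direction. Among the falls was Kcnq1ot1, the long noncoding RNA of the paternal copy at chr7:143203458-143296549, which silences neighbouring genes including Cdkn1c and Phlda2. It stood at 2.28, 1.502 and 1.67 CPM in AFX and 316, 189 and 191 in E6.0, a log2 change of -6.94 ± 0.30 (adjusted p 1.56e-12). Kcnq1ot1 lies antisense within Kcnq1, and counting is not stated to use strand, so reads of both genes cannot be told apart. Cdkn1c, a CDK inhibitor, was at 45.8, 34.5 and 40.9 CPM against 13.9, 16.7 and 18.2, a log2 change of 1.31 ± 0.25 (adjusted p 0.000443), and Phlda2, a growth regulator of the placenta, rose by 2.05 ± 0.42 (adjusted p 0.000712). H19, a maternal noncoding RNA, was at 2.15, 3.004 and 1.33 CPM against 38.4, 64.1 and 64.6, a log2 change of -4.72 ± 0.76 (adjusted p 0.000238). Its paternal neighbour Igf2, a growth factor, was at 57.7, 79.98 and 93.3 CPM against 2.89, 4.07 and 3.41, a log2 change of 4.45 ± 0.60 (adjusted p 4.45e-05). Nnat, a paternal proteolipid gene, had no count in AFX and 8.02, 10.7 and 10.98 CPM in E6.0, at least 35.97-fold lower in AFX (adjusted p 8.17e-07).

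Several other paternally expressed genes rose. Peg3, a zinc finger gene, stood at 720.3, 734 and 776 CPM in AFX and 205, 169 and 129 in E6.0, a log2 change of 2.15 ± 0.26 (adjusted p 8.81e-06). Peg10, derived from a retrotransposon, was at 110.1, 184 and 222 CPM against 6.70, 16.3 and 11.9, a log2 change of 3.86 ± 0.32 (adjusted p 1.02e-07), and its neighbour Sgce rose by 4.05 ± 0.63. Dlk1, a Notch-like protein, was at 6.99, 1.88 and 47.5 CPM in AFX and 0.789, 1.65 and 0.853 in E6.0, a log2 change of 4.05 ± 0.93 (adjusted p 0.00276), and without passage 16 the value was 2.01. The call on Dlk1 was lost with the 2 groups fitted alone (adjusted p 0.0833). Meg3, the maternal noncoding RNA of the same region, was at 508, 476 and 453 CPM against 619, 225 and 279 and did not pass (adjusted p 0.399). Embryo 1 held its highest level, and without that embryo the log2 fold change was 0.93 (0.00769). Allele-resolved counts were not analysed here, so these values do not say which parental copy was read.

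Genes of cholesterol synthesis and uptake were higher in AFX. Of 23 genes tested, 21 were higher and 0 lower, against 17.9% higher among all genes, with a median of 1.89. Hmgcs1, which makes HMG-CoA, stood at 364, 491 and 555 CPM in AFX and 76.1, 72.3 and 98.7 in E6.0, a log2 change of 2.51 ± 0.19 (adjusted p 3.41e-09). Later steps of the pathway rose too, among them Fdps (3.46 ± 0.42), Sqle (1.96 ± 0.17), Lss (2.42 ± 0.22), Cyp51 (2.13 ± 0.23) and Msmo1 (3.44 ± 0.22). The regulators moved in the same direction: Srebf2, the transcription factor of the pathway, was at 369, 379 and 351 CPM against 101, 98.9 and 121, a log2 change of 1.78 ± 0.13 (adjusted p 6.87e-10), and Insig1, which holds it inactive when sterol is plentiful, at 82.2, 98.3 and 110.1 CPM against 30.1, 28.2 and 45.5, a log2 change of 1.48 ± 0.23 (adjusted p 4.21e-05). The sterol element TCACNCCAC, searched on both strands in the 250 bases before the start, was found in 1 of 15 genes of the list with a promoter, Hmgcs1, against 1.22% of all genes.

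Of the fatty acid synthesis genes, 7 of 9 were higher and 0 lower. Scd1, the desaturase related to Scd2, was at 282, 301 and 277 CPM against 44.6, 41.2 and 44.8, a log2 change of 2.72 ± 0.46 (adjusted p 0.000338). Acly, which makes cytosolic acetyl-CoA, rose by 0.57 ± 0.12 (adjusted p 0.00118). Fasn, the synthase itself, was at 608, 930.0 and 1010.4 CPM against 589, 651 and 621 and did not pass (adjusted p 0.132). Fasn passed as higher without a filter, with the 2 groups fitted alone (adjusted p 0.044) and without AFX passage 14 (0.0434).

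Of 18 glycolysis genes, 2 were higher and 2 lower, beside 34.5% of all genes that changed. Ldha (lactate dehydrogenase) was at 1234, 968 and 991 CPM against 1524, 1522 and 1411, a log2 change of -0.48 ± 0.13 (adjusted p 0.00526), and Pdk1, which restrains pyruvate entry into mitochondria, was at 77.95, 67.2 and 68.1 CPM against 25.9, 21.7 and 33.3, a log2 change of 1.401 ± 0.20 (adjusted p 1.22e-05). Hypoxia-response genes rose in 6 of 12 cases, with 0 lower and a median of 1.396. Ndrg1, a stress-responsive differentiation gene, was at 46.3, 14.02 and 25.1 CPM against 2.50, 2.60 and 1.17, a log2 change of 3.77 ± 0.73 (adjusted p 0.00104). Ddit4 (REDD1), an inhibitor of mTORC1, was at 118, 60.7 and 40.8 CPM against 6.31, 6.15 and 3.62, a log2 change of 3.77 ± 0.65 (adjusted p 0.000397). P4ha1, a collagen prolyl hydroxylase, was at 92.5, 78.5 and 66.02 CPM against 22.2, 17.8 and 14.8, a log2 change of 2.12 ± 0.25 (adjusted p 2.94e-06). The list was highest at passage 14, with summed levels of 636, 430.2 and 364 CPM over the 3 passages and 174 to 265 in the epiblasts. The hypoxia core ACGTG was found in 9 of 11 genes of the list with a promoter, against 18.5% of all genes.

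Most mitochondrial and ribosomal genes that passed were moderately lower. Of 13 protein genes of the mitochondrial genome, 11 fell and 1 rose, with a median of -0.84, and their share of all counts was 0.651% to 0.771% in AFX against 1.05% to 1.11% in E6.0. mt-Nd1, a complex I subunit, was at 715, 935 and 909 CPM against 1682, 1987 and 1971, a log2 change of -1.14 ± 0.19 (adjusted p 0.000194). mt-Nd6, the gene on the other strand, rose by 1.01 ± 0.23, but counting is not stated to use strand, so its reads cannot be told apart from those of the strand opposite. Nuclear oxidative phosphorylation genes fell in 25 of 73 cases with 0 higher (median -0.33), or 34.2% against 16.6% lower among all genes. Cytoplasmic ribosomal protein genes fell in 53 of 76 with 1 higher (median -0.43), and took 2.74% to 3.24% of the counts in AFX against 3.36% to 3.41% in E6.0. Clustered histone genes fell in 39 of 67 with 0 higher (median -0.72), or in 21 to 23 when AFX passage 15 or 16 or embryo 2 or 3 was left out. Many members of these 3 nuclear families have near-identical copies or pseudogenes, so single values in them are uncertain.

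In the list of p53 targets and apoptosis genes, which also holds BCL2 family members, 11 of 18 genes were higher, 2 lower and 5 did not pass. Cdkn1a (p21), the CDK inhibitor that p53 induces, stood at 31.5, 26.7 and 32.6 CPM in AFX and 5.52, 5.98 and 3.52 in E6.0, a log2 change of 2.59 ± 0.38 (adjusted p 2.50e-05). Ccng1 (cyclin G1) was at 179, 211 and 202 CPM against 39.04, 41.9 and 58.5, a log2 change of 2.08 ± 0.22 (adjusted p 8.71e-07). Trp53inp1, a p53 cofactor, was at 119, 153 and 127 CPM against 17.9, 19.2 and 31.8, a log2 change of 2.53 ± 0.24 (adjusted p 1.21e-07). Phlda3 rose by 2.30 ± 0.33, Perp by 3.34 ± 0.51 and Mdm2, which degrades p53, by 0.62 ± 0.16. Trp53 itself was at 90.7, 138 and 116 CPM against 109, 111 and 124 and did not pass. Of the BCL2 family, Bcl2 was at 13.9, 13.02 and 10.6 CPM against 1.97, 2.69 and 2.13, a log2 change of 2.45 ± 0.37 (adjusted p 2.72e-05), and Mcl1 at 95.1, 112 and 124 CPM against 239, 244 and 248, a log2 change of -1.14 ± 0.14 (adjusted p 3.07e-06). Mcl1, the survival protein that NOXA binds, and Pmaip1 were the 2 genes of the list that fell.

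Among G1 regulators, 4 of 12 rose and 5 fell. Ccnd2 (cyclin D2) stood at 179, 139.6 and 122 CPM in AFX and 6.84, 14.5 and 3.30 in E6.0, a log2 change of 4.13 ± 0.52 (adjusted p 2.19e-05), or 4.88 without embryo 2. Its kinase partner Cdk6 was at 66.4, 101 and 123 CPM against 27.1, 29.3 and 15.1, a log2 change of 2.02 ± 0.43 (adjusted p 0.00192). Ccne1 (cyclin E1) was lower, at 55.8, 65.5 and 67.6 CPM against 147, 160.2 and 190.2, a log2 change of -1.398 ± 0.23 (adjusted p 9.50e-05), and Mycn changed by -0.97 ± 0.22 (adjusted p 0.00217).

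Immediate early genes, which growth factor signals turn on within minutes, were lower in 8 of 15 cases and higher in 1. Egr2 was at 0.403, 0.125 and 1.17 CPM against 11.96, 10.05 and 7.03, a log2 change of -4.02 ± 0.90 (adjusted p 0.00167), or -5.00 without passage 16. Dusp1, an ERK and p38 phosphatase, was at 7.93, 6.76 and 11.7 CPM against 35.9, 30.6 and 19.8, a log2 change of -1.70 ± 0.32 (adjusted p 0.000276), and Ier2 at 25.7, 33.9 and 38.8 CPM against 70.7, 78.2 and 74.1, a log2 change of -1.18 ± 0.16 (adjusted p 9.47e-06). Egr1 fell as well (-1.73 ± 0.53, adjusted p 0.0196), was -2.54 without passage 16, and lost its call when AFX passage 14 or 15 or embryo 1 or 2 was left out and with the 2 groups fitted alone (adjusted p 0.0836). Heat shock genes split, with 3 of 11 higher, including Hspa1a (2.52 ± 0.68), and 3 lower, including the constitutive chaperone gene Hspa8 (-0.68 ± 0.16). The genes of the ATF4 response mostly did not pass, with 2 higher and 1 lower of 15, or 5 passing without a filter. Atf5 was one of the higher ones (1.44 ± 0.36). The ATF4 element TGATGNAA was found in 4 of 14 of them with a promoter, against 3.91% of all genes.

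In the list of interferon response and MHC class I genes, 4 of 15 were higher and 2 lower, and the calls include genes of antigen presentation. H2-K1, an MHC class I heavy chain, stood at 43.5, 25.9 and 20.1 CPM in AFX and 2.37, 1.91 and 2.66 in E6.0, a log2 change of 3.70 ± 0.44 (adjusted p 3.65e-06). B2m, the light chain, was at 13.2, 16.9 and 11.1 CPM against 3.16, 3.12 and 2.88, a log2 change of 2.16 ± 0.41 (adjusted p 0.000325), and Tap1, the peptide transporter, at 13.4, 12.3 and 8.49 CPM against 1.05, 0.866 and 2.45, a log2 change of 2.96 ± 0.38 (adjusted p 3.61e-06), or 3.57 without embryo 3. Psmb8, an immunoproteasome subunit, fell, at 0.269, 0.376 and 0.250 CPM against 0.657, 6.76 and 7.78, a log2 change of -4.11 ± 1.02 (adjusted p 0.00558). H2-K1 belongs to a multigene family whose members differ between mouse strains, so its value is uncertain.

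The metallothioneins, small proteins that bind zinc and copper, fell. The 250 bases before the start of both genes are shown with matches to TGCNCNC, a loose form of the metal element, on either strand, in capitals.
Mt1 (chr8:94178839-94179088, plus strand): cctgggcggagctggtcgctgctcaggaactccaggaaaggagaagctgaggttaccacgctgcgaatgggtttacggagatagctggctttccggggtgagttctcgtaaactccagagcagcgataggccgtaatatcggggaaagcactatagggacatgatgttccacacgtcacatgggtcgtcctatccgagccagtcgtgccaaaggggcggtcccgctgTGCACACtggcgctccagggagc
Mt2 (chr8:94172368-94172617, plus strand): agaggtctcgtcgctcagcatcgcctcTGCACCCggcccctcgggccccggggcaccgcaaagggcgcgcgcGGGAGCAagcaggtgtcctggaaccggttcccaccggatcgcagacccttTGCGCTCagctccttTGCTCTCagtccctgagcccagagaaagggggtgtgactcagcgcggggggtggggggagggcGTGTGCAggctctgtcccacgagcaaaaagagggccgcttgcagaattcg
Mt2 holds 5 matches and Mt1 holds 1, while 47.2% of all genes hold at least 1 such short match. A match to this loose pattern need not be a metal element. Mt2 stood at 1.95, 1.63 and 2.41 CPM in AFX and 62.05, 64.2 and 92.9 in E6.0, a log2 change of -5.17 ± 0.58 (adjusted p 6.21e-06). Mt1 was at 19.4, 12.6 and 12.2 CPM against 105, 110.4 and 184, a log2 change of -3.16 ± 0.54 (adjusted p 0.000406). All epiblasts lay above all AFX samples for both, and 53.1% of all genes had no overlap in either direction. In the list that joins them with NRF2 targets, 3 of 11 fell and 1 rose.

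Purine genes fell or did not pass, with 7 of 11 lower and 0 higher. Hprt, the X-linked salvage enzyme for hypoxanthine and guanine (chrX:52988137-53021659), stood at 0.605, 0.125 and 0.916 CPM in AFX and 58.9, 69.2 and 66.4 in E6.0, a log2 change of -6.74 ± 0.42 (adjusted p 5.17e-10). E14Tg2a, a widely used derivative of E14, is known to be HPRT-deficient, and the labels do not say which derivative was used. The AF EpiSCs, also of E14, were at 0.358 ± 0.256 CPM (SD, n = 3). Aprt, the salvage enzyme for adenine, was at 43.01, 49.8 and 43.96 CPM against 41.8, 53.5 and 49.98 and did not pass (adjusted p 0.727). Of the de novo pathway, Ppat, its first enzyme, was at 83.7, 102 and 96.6 CPM against 183, 189 and 189, a log2 change of -0.99 ± 0.19 (adjusted p 0.000501), and Atic, its last, at 105, 118 and 123 CPM against 289, 286 and 285, a log2 change of -1.32 ± 0.15 (adjusted p 8.63e-07).

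Sex-linked genes showed that the epiblasts were of different sexes, so no fold change of them stands for culture against embryo. Xist, the RNA that coats the inactive X chromosome, was at 0.657, 969 and 855 CPM in the 3 embryos and 0.202, 0.501 and 0.583 in AFX. The Y-linked genes Ddx3y, Uty and Eif2s3y were at 77.04, 0 and 0.639, at 52.8, 0.0866 and 0.107 and at 42.5, 0 and 0 CPM in the 3 embryos. Embryo 1 thus had Y-linked RNA and little Xist, and embryos 2 and 3 the reverse. AFX cells had Ddx3y at 56.1, 69.1 and 67.8 CPM, Uty at 38.3, 37.6 and 47.5 and Eif2s3y at 31.1, 31.4 and 27.1. Kdm5d, a Y-linked histone demethylase, was at 38.3, 0.0866 and 0 CPM in the embryos but at only 0.0672, 0.250 and 0 in AFX, which was 3 counts in all (adjusted p 0.0597 against E6.0). It passed as lower by the DESeq2 Wald test (0.0135), over genes averaging at least 5 CPM, without a filter and without embryo 2 or 3, but not in 7 other alternatives, and its sign turned without embryo 1. The AF EpiSCs held 13.6, 23.4 and 17.2 CPM of it, although the difference between AFX and AF did not pass (adjusted p 0.116), in a comparison that called 8.04% of all genes.

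Markers of extraembryonic, blood-forming and endothelial cells, which a dissected epiblast or a culture could hold, were low. Feeder fibroblast markers, described above, summed to 47.8 to 76.8 CPM in AFX. Visceral endoderm markers, of the layer that surrounds the epiblast, summed to 15.3 to 26.97 CPM in AFX and 27.8 to 35.9 in E6.0, and 5 of 12 tested were lower and 0 higher in AFX. Between 1 (over genes averaging at least 5 CPM) and 8 (without a filter) of them passed under the alternatives, with 2 when the 2 groups were fitted alone and 3 without AFX passage 16 or without embryo 3. Dab2 supplied 22.5 ± 3.06 CPM of the epiblast sum (SD, n = 3), while the defining gene Ttr was at 0, 0.173 and 0.320 CPM. Of these markers 4 were at 0 in all AFX samples and 1 in all epiblasts. Extraembryonic ectoderm markers summed to 5.51 to 9.48 and 5.76 to 9.96 CPM, and 0 of 6 passed in edgeR, against 1 by the DESeq2 Wald test, without a filter or with the 2 groups alone. Haematopoietic and endothelial mesoderm markers summed to 4.84 to 10.2 CPM in AFX and 5.92 to 14.5 in E6.0, with 1 of 6 lower and 0 higher, or 2 passing without embryo 2.

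Genes of chromosome 15 were higher in AFX along the whole chromosome. Over genes averaging at least 5 CPM across the 6 samples, the median log2 fold change was 0.45 for the 418 genes of chromosome 15 and between -0.18 and -0.02 for each of the other 19 chromosomes. On chromosome 15, 178 genes rose (42.6%) and 16 fell (3.83%), against 12.4% to 21.1% that rose on the others. With its genes split by position into 3 equal parts, the medians were 0.37, 0.46 and 0.51. In single samples, the median log2(CPM + 1) of chromosome 15 genes, taken relative to the E6.0 mean, was 0.389 to 0.424 in the 3 AFX samples and -0.06 to 0.03 in the 3 epiblasts. It was -0.17 to -0.11 in the AF EpiSCs and -0.17 to 0.03 in all other samples of the series, so the 3 AFX samples lay apart from all 18 others. Chromosome 15 was singled out after these values were seen, so they are a description with no test. Of the genes described above, Scube1, Myh9, Grhl2, Acvr1b, Sqle, Srebf2, Ndrg1, Krt8 and Dab2 lie on chromosome 15, and the part of this shift in their values was not tested.

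**Figure D5:**
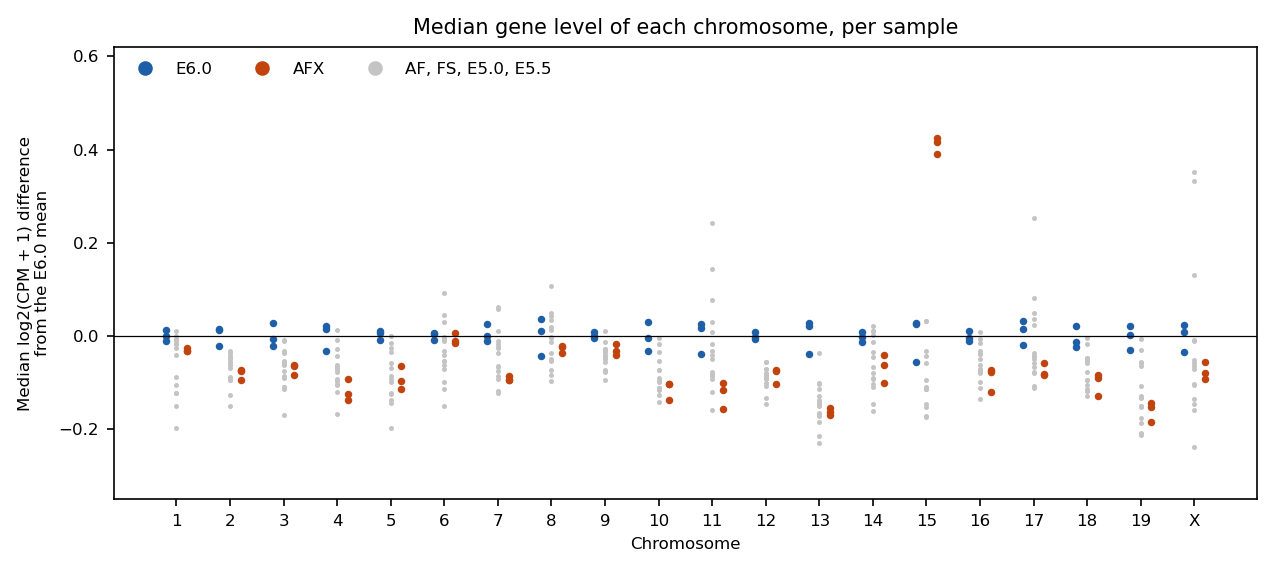
Median log2(CPM + 1) of the genes of each chromosome, taken as the difference from the mean of the 3 E6.0 epiblasts, for every sample: E6.0 blue, AFX orange, the other 15 samples grey. On chromosome 15 the 3 AFX samples lie between 0.389 and 0.424, above all others.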

How the data were processed

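RNA was measured by RNA-seq in all 21 samples, from RNA isolated with the PicoPure kit, per the labels' protocols. Per the submitters' processing notes the tools include Trim Galore, TopHat2 2.1.0 and featureCounts 1.5.0, with the build mm10. The strand setting and the annotation used for counting are not given in the sources used here. The authors deposited 1 table of raw whole-number counts per gene with no normalization.

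Genes were filtered with edgeR 4.0.16 (filterByExpr), scaled by TMM, and fitted with the robust quasi-likelihood test in R 4.3.3 over all 21 samples in 7 groups, which share 1 estimate of the spread. AFX was compared with E6.0, with Benjamini-Hochberg adjustment over all 16614 genes and a threshold of 0.05. CPM use the TMM-scaled library size. A group at 0 was held at 3 counts per library for a lower bound. With 1 to 3 counts over a group the ratio of pooled counts is given for most genes named, but not for Dppa3 or Kdm5d. Coordinates and gene types come from GENCODE M21 and promoters from the RefSeq table for GRCm38.p6.

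The members and gene lists were chosen with earlier results of these data known. The largest changes were named as the 10 rises and 10 falls with the largest log2 fold change, and the abundant ones as the 8 rises and 8 falls of highest CPM in the higher group among genes changed at least 4-fold, in both cases among genes past the threshold whose higher group averaged at least 10 CPM and whose values did not overlap, with symbols of predicted genes and symbols ending in -ps left out. This rule on symbols let through Rps4l and Hist1h2al, which GENCODE types as pseudogenes. Other genes were named from the lists, and some items are not reported here. On counts simulated for this comparison over 15985 genes, 54% of 2-fold and 83% of 4-fold changes were recovered, and 11 of 148 calls were false (7.43%). In it 100 genes were changed 2-fold and 100 genes 4-fold, in AFX alone. All other genes had the same mean in every group, and the spread followed its trend with level. Far more genes were called in the data (34.5%), so these rates need not hold there. Alternatives were DESeq2 1.42.0 (size factors or its Wald test), other filters, other groupings, removal of ribosomal RNA-like loci, and leaving out each sample.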

Additional observations from a re-analysis of the deposited data

Results flagged for a closer look

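Of the 34 genes named for their size of change or abundance, 13 also differed between AFX and AF EpiSCs in the direction of their change against E6.0. AF EpiSCs are E14 cells at the same passages in another medium. This comparison shares the AFX samples with that against E6.0, and edgeR's quasi-likelihood test called 8.04% of all genes in it. The 34 genes were chosen for their values in these AFX samples, which favours the same direction, so the 8.04% is no yardstick for the 13. Higher in AFX than in AF were Mctp1 (log2 fold change 3.73), Scube1 (4.23), Ptprv (2.29), Noct (2.37) and Wdr31 (3.7). Lower in AFX than in AF were Pcnx2 (-6.65), Pmaip1 (-3.42), Ap1m2 (-4.3), Rps4l (-4.48), Zfp987 (-3.95), Kcnq1ot1 (-6.36), Cdcp1 (-4.75) and Myh9 (-2.04). Kcnq1ot1 stood at 195, 136 and 133 CPM in AF at passages 14, 15 and 16, and Pcnx2 at 0.988, 0.440 and 2.23. Some of these levels were not particular to AFX among the cultured cells. In FS line 1 and FS line 2, mean CPM was 17.4 and 1046 for Wdr31, 138 and 1226 for Noct, and 1.43 and 307 for Kcnq1ot1. Pmaip1 was at 0.112 and 0.217 in them, whereas Myh9 was at 1112 and 1288. As AFX held no count of Pcnx2, its fitted value depends on the prior count and is no bound. Dnmt3b alone among the 34 differed in the opposite direction, lower in AFX than in E6.0 (-2.07 ± 0.19) but higher than in AF (0.65, adjusted p 0.0344 in edgeR).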

How the results depend on the processing

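The number of genes past the threshold, 5724 as reported, was 5676 with DESeq2 size factors, 6151 with the DESeq2 Wald test, 5712 without a filter, 4671 over genes averaging at least 5 CPM in either group, 6631 with the 2 groups fitted alone, 5452 with both FS lines in 1 group and 5771 without ribosomal RNA-like loci. It was 4293 to 4907 when 1 of the 6 samples was left out. No gene that was called both as reported and under one of these alternatives changed its direction. Among single genes, Trp53 (-0.00 as reported) was 0.032 and 0.031 with DESeq2 size factors and the Wald test, 0.053 over genes of at least 5 CPM, 0.0083 with the 2 groups alone, and -0.15 to 0.15 when 1 sample was left out. Without embryo 1 Ddx3y, Uty and Eif2s3y also passed as higher. With 1 sample left out, Sycp3 ran from -0.14 to 1.01, Fgf5 from -0.023 to 0.36, Lefty1 from -5.27 to 1.25 and Kdm5d from -7.99 to 0.73. Of the settings that turned a direction among these 5 genes, only that for Lefty1 (without AFX passage 16) gave a call. Medians of 9 lists changed sign under at least 1 alternative: primitive streak (0.52 with the 2 groups alone, 0.26 without embryo 2), WNT (0.04, 0.07 and 0.13 without AFX passage 14, embryo 2 or embryo 3), BMP (0.06 without embryo 2), interferon and MHC (-0.21 without embryo 1), ATF4 (-0.23 without AFX passage 14), glycolysis (0.02 without AFX passage 16), epithelial and mesenchymal (-0.70 over genes of at least 5 CPM, -0.39 with the 2 groups alone), extraembryonic ectoderm (0.17 with the 2 groups alone, 0.54 without embryo 2) and haematopoietic mesoderm (-0.10 at the lowest, without AFX passage 16). Without a filter T, Foxa2, Lefty1, Fgf8, Meg3, Eomes, Fasn and the Y-linked Ddx3y, Uty, Eif2s3y and Kdm5d passed as well, which they did not as reported. The causes of these changes were not tested. No paired analysis was possible because AFX passages 14 to 16 and embryos 1 to 3 share no replicate number. The median of 2 marker lists (extraembryonic ectoderm, haematopoietic mesoderm) had no value over genes of at least 5 CPM, as none was left. Depth limits genes with few counts, for which the ratios carry wide intervals.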
